A study of Mus musculus with 9 samples.

Results

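The last step of postnatal heart muscle maturation covered by the series was examined by setting 3 libraries of mouse cardiomyocytes from postnatal day 56 (P56, adult) against 3 from postnatal day 14 (P14, juvenile). These are 6 of the 9 RNA-seq libraries of the series, and all 15817 genes tested were compared. The other 3 libraries, from postnatal day 1 (P1), entered the fit as 1 more age and are quoted only for reference. All animals were of the outbred CD1 strain, with no genetic change or treatment named for any of them, and the labels give neither sex nor the time of day at which hearts were collected. Each library came from pooled hearts, 6 to 7 at P14 and at P56 and 12 at P1. The material is labelled as isolated cardiomyocytes and ribosomal RNA was depleted. The protocols describe digestion into whole cells with removal of other cells, a step set some days after surgery, and also sorting of nuclei that carry Pcm1, a centriolar satellite protein found around cardiomyocyte nuclei. The labels do not settle which protocol gave which library, so the values may be of nuclear or of whole-cell RNA.

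Heart muscle cells of the newborn mouse still divide, and they stop doing so during the first weeks of life while the cells enlarge, build transverse tubules and fill with mitochondria. Over the same period troponin and myosin isoforms are exchanged, imprinted growth genes such as Igf2 are silenced, and the use of fuel moves from glucose and lactate towards fatty acids. The interval between P14 and P56 follows the main isoform switches and spans weaning from fat-rich milk to solid food. It also spans the growth of vessels and connective tissue between the muscle fibres.

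Transcripts that define cardiomyocytes were abundant at both ages. Ttn, the giant sarcomere spring, stood at 35950, 44280 and 52940 CPM (read counts relative to the TMM-scaled library size) in P14 replicates 1, 2 and 3 and at 32610, 47370 and 49630 in P56 replicates 1, 2 and 3, and values of other genes follow that order. Tnnt2, cardiac troponin T, stood at 2346, 3515 and 3429 CPM and then 2240, 2943 and 3216, and neither gene passed the test. Pcm1 itself, used in the sorting protocol, was 147, 128 and 134 CPM at P14 and 177, 169 and 174 at P56 and rose by 0.34 ± 0.06 on the log2 scale (± SE, quasi-likelihood test of edgeR, Benjamini-Hochberg adjustment over all genes, called edgeR adjusted p from here on, 0.000967). With correction for GC content the change of Pcm1 was 0.04 (edgeR adjusted p = 0.43), and with scaling by library totals 0.23 (edgeR adjusted p = 0.0539). Myh6 and Mybpc3, further cardiomyocyte markers, passed the test as lower at log2 changes of −0.61 and −0.64. Both are described with the sarcomere genes. Deposited totals were 36619799 to 38878181 counts at P14 and 45866453 to 49535917 at P56. The 3 libraries of an age are called biological triplicates in the design text, and the p-values measure the spread between these pools only. No source used here states whether reads were counted by strand, so genes that share exons with another gene, among them H19, Meg3 and Bdh1, have values that are uncertain to that extent.

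The markers of endothelial cells and fibroblasts fell over this step. All 15 endothelial markers were lower at P56, against a background of 28.5% of all genes, with a median log2 change of −2.62. Their summed level was 675, 424 and 258 CPM in the P14 libraries and 119.7, 62.3 and 45.5 CPM at P56. Within each age the sum was thus highest in replicate 1 and lowest in replicate 3, and the ages did not overlap. Pecam1, an adhesion protein of endothelial junctions, stood at 72.5, 47.8 and 30.4 CPM at P14 and 10.6, 5.42 and 4.03 at P56 and fell by 2.91 ± 0.38 (edgeR adjusted p = 0.000187). Vwf, the clotting factor carrier stored in endothelium, stood at 61.7, 42.0 and 26.3 and then 7.95, 4.00 and 2.94 CPM and fell by 3.13 ± 0.43 (edgeR adjusted p = 0.000237). None of the 15 reached 0 in any of the 6 libraries.

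Of the 15 fibroblast markers, 13 were lower at P56 and none higher, against 28.5% and 27.5% of all genes, with a median of −3.16. Summed, they stood at 958, 655 and 266 CPM at P14 and 162, 91.6 and 75.3 at P56, again in the order of the replicates' endothelial sums and without overlap between ages. Col1a1, a chain of fibrillar collagen I, stood at 203, 145 and 48.9 CPM at P14 and 11.4, 6.52 and 3.23 at P56 and fell by 4.23 ± 0.60 (edgeR adjusted p = 0.000284). The 2 that did not pass were Dcn, a small proteoglycan, at 56.3, 26.5 and 12.6 and then 22.4, 9.67 and 9.82 CPM, and Gsn, an actin-severing protein also made by muscle, at 46.4, 35.3 and 14.8 and then 52.3, 21.7 and 20.6 CPM. Both ranges overlapped between ages. Dcn was lower past the threshold without P14 replicate 3 (log2 change −1.57) or without P56 replicate 1 (−1.71). In bulk libraries fewer cells of a type and less RNA per cell cannot be told apart.

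Markers of other cells moved unevenly. At P1 the endothelial sum was 101, 83.3 and 114 CPM, below all P14 libraries, and the fibroblast sum was 336, 234 and 433, which overlapped P14. Epicardial markers were lower for 5 of 6, against 28.5% of all genes, with a median of −3.85. Among them Wt1, a transcription factor of the epicardium, stood at 11.9, 9.71 and 5.601 and then 1.36, 0.873 and 0.512 CPM. Smooth muscle and pericyte markers were lower for 8 of 11, against 28.5% of all genes, with a median of −1.27. That median was −2.04 without P56 replicate 1 and −0.85 without P56 replicate 3. Acta2, smooth muscle actin, which young cardiomyocytes also make, stood at 99.9, 137 and 93.2 CPM at P14 and 7.86, 10.7 and 8.00 at P56 and fell by 3.64 ± 0.19 (edgeR adjusted p = 9.62e-07). Its P14 libraries did not follow the order of the endothelial sums. With the marker score described below in the fit, 3 epicardial and 2 smooth muscle markers were lower and 1 of each higher.

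Leukocyte markers differed from these. Of 12 measured, 1 was lower, Laptm5, a lysosomal protein of blood cells, and none was higher, against 28.5% and 27.5% of all genes. The count of lower leukocyte markers was 5 without P14 replicate 3, 2 without P56 replicate 1 and 0 without P14 replicate 1 or P56 replicate 3. Mrc1, a mannose receptor of resident macrophages, stood at 18.99, 8.57 and 4.97 CPM at P14 and 8.20, 5.26 and 3.45 at P56, with overlap and without passing the test (log2 change −0.95 ± 0.45). It was lower past the threshold without P14 replicate 3 (−1.29) or P56 replicate 1 (−1.32). Of the 12 genes, 10 carried the order of the endothelial sums at P14, and the list's median was −0.48. The 4 measured red cell markers included no call, with a median of −0.59, and Adipoq and Plin1, which define adipocytes, were not analysed here.

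The step as a whole was broad. Of the 15817 genes, 4356 (27.5%) were higher and 4504 (28.5%) lower at P56 at an edgeR adjusted p under 0.05, and the median log2 change of all genes was −0.02. Scaling by library totals alone shifted the median of all genes by −0.11 and moved the split of calls from 49.2% higher and 50.8% lower to 37.1% and 62.9%. Libraries of the ages did not overlap in 30.2% of genes with P56 higher and 29.3% with P56 lower. A log2 change of at least 1 was reached by 979 genes (6.19%) upward and 2359 (14.9%) downward, and when the change itself was tested against a log2 of 1 these were 472 (2.98%) and 1271 (8.04%).

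The mean log2 CPM of the 30 endothelial and fibroblast markers, called the marker score, was 4.97, 4.30 and 3.44 at P14, 2.43, 1.59 and 1.13 at P56 and 2.34 to 2.98 at P1. With the score as a second term beside age, 2559 genes (16.2%) were higher and 2410 (15.2%) lower. These shares are the background for every list count given with the score. Of the genes called with age alone, 2015 of those higher and 1694 of those lower were called in the same direction with the score, 2 higher genes turned lower and 69 lower genes turned higher. This fit leans on the spread of the score among libraries of 1 age and on the P1 libraries, since the P14 and P56 scores do not overlap. The P14 libraries carried the order of the score, replicate 1 above 2 above 3, in 47.8% of the genes that fell and in 28.1% of all genes. The opposite order was found in 27.7% of the genes that rose and 27.2% of all genes. The endothelial and fibroblast markers make up the score, so their own values in this fit are set by its construction and say nothing of them. Of the leukocyte markers, which are not part of the score, 7 were higher and none lower with it. What part RNA from these cells had in any other change was not tested.

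**Figure D1:**
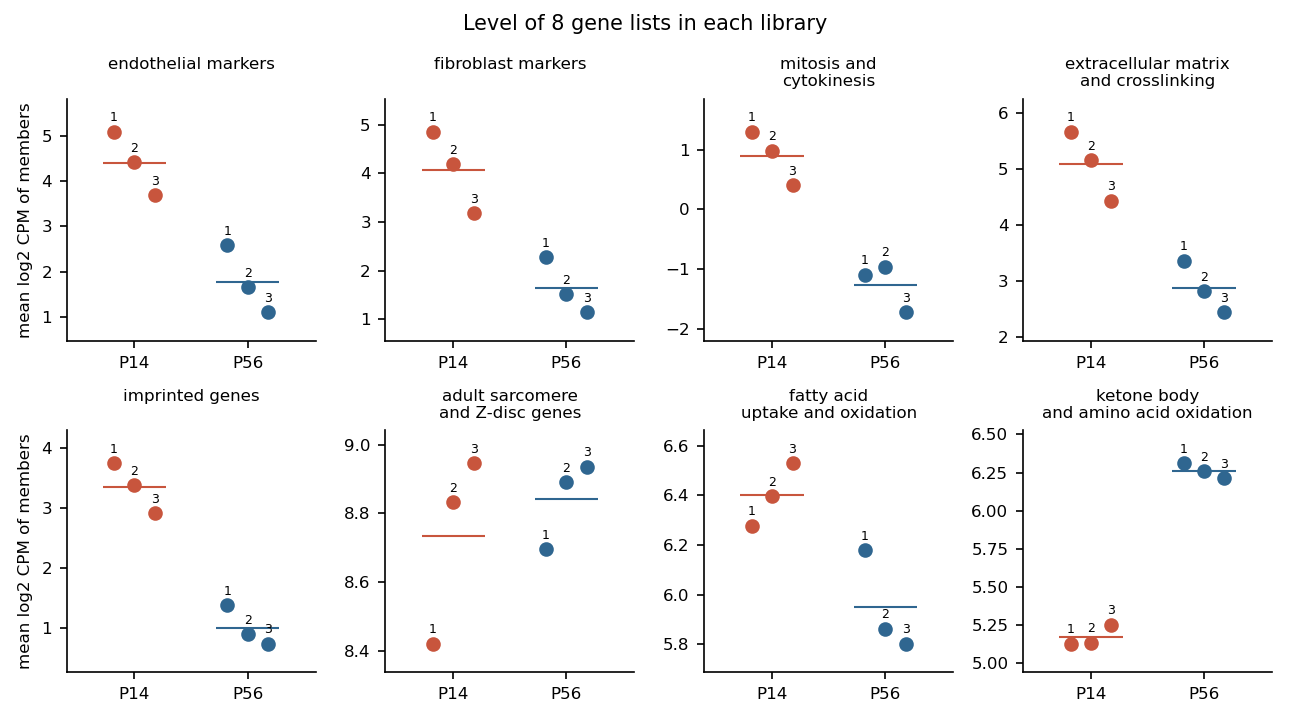
Mean log2 CPM of the members of 8 gene lists (y axes, each with its own range) in the 3 P14 and 3 P56 libraries, with the replicate number over each point and a line at the mean of 3. Among the P14 libraries, endothelial and fibroblast markers and matrix genes lie highest in replicate 1 and lowest in replicate 3. Adult sarcomere genes show the opposite order at P14. The ketone body and amino acid list lies above all P14 values in all P56 libraries.

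Genes of cell division were lower at P56. In the mitosis and cytokinesis list 28 of 30 fell and 2 rose, against 28.5% and 27.5% of all genes. The median log2 change was −2.21. Mki67, a protein that coats mitotic chromosomes, stood at 9.74, 7.00 and 4.08 CPM at P14 and 0.861, 0.918 and 0.267 at P56 and fell by 3.35 ± 0.39 (edgeR adjusted p = 9.04e-05). Top2a, which untangles DNA before chromosomes separate, stood at 5.06, 3.98 and 2.48 and then 0.566, 0.574 and 0.0668 CPM and fell by 3.26 ± 0.45 (edgeR adjusted p = 0.000264). In both genes P14 replicate 1 was highest and P14 replicate 3 lowest, the order of the marker score, and P56 replicate 3 was the lowest of all libraries. Aurkb, the kinase of the chromosomal passenger complex, stood at 0.716, 0.514 and 0.386 CPM and then 0.0679, 0.0230 and 0 and fell by 4.05 ± 0.56 (edgeR adjusted p = 0.000256). Prc1, which bundles the microtubules of the central spindle, stood at 3.53, 2.08 and 1.24 and then 0.204, 0.276 and 0.0668 CPM and fell by 3.64 ± 0.47 (edgeR adjusted p = 0.000179). Ttk, a spindle checkpoint kinase, and Cdc20, an activator of the anaphase-promoting complex, fell by 3.67 ± 0.53 and 3.55 ± 0.55.

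The 2 members that rose were Cenpa, the histone variant of centromeres, at 29.8, 40.3 and 44.8 and then 47.2, 53.1 and 57.1 CPM, and Cenpf, a kinetochore protein, at 13.9, 13.5 and 14.2 and then 16.2, 20.7 and 20.2. Both had all P56 libraries above all P14 libraries, with edgeR adjusted p of 0.0152 and 0.00557. Cenpa did not pass without P56 replicate 3 (0.39, edgeR adjusted p = 0.0587), nor Cenpf with correction for GC content (0.21, edgeR adjusted p = 0.15). Of the 30 members, 21 carried the order of the marker score at P14 and 1 the opposite. Fitted with the score, 5 were lower and none higher, against 15.2% and 16.2% of all genes, and the median was −1.15. The count of lower members was thus near the share of all genes. Mki67 was among the 5 at −1.67 (edgeR adjusted p = 0.0164), while Top2a was at −1.57 (edgeR adjusted p = 0.0506) and Cenpa at −0.22.

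The promoters of Mki67 and Top2a are shown because cell cycle genes of this kind are known to carry a CHR element (TTTGAA) and CCAAT boxes, the sites through which the DREAM complex and NF-Y act. The windows run from 250 bases before to 50 after the RefSeq start on GRCm38.p6, 5′ to 3′ along the gene's strand, with capitals for TTTGAA and CCAAT on either strand.
Mki67, chr7:135716330-135716629, reverse strand: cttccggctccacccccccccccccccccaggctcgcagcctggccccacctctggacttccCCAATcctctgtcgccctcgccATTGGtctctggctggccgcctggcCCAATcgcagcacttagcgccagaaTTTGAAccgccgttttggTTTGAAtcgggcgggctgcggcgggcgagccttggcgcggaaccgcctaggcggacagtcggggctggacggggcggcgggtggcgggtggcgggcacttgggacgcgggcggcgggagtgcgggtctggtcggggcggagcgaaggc
Top2a, chr11:99024140-99024439, reverse strand: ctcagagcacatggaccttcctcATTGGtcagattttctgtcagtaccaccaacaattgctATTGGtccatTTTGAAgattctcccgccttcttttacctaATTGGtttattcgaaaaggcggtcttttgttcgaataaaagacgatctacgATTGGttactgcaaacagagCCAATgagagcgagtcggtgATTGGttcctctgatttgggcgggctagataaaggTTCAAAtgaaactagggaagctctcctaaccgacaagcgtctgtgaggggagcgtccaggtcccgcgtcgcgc
Only genes with exactly 1 promoter in the RefSeq table were counted, which were 24 of the 30 mitosis and cytokinesis genes. TTTGAA on either strand was in 18 of them (75.0%) against 11.9% of the 8734 tested genes with 1 promoter. CCAAT was in 18 (75.0%) against 38.4%, and both motifs were in 15 (62.5%) against 4.97%. A match describes the letters only.

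DNA replication genes were also mostly lower. Of 29 measured, 17 were lower and 2 higher, against 28.5% and 27.5% of all genes, and the median was −0.77. Mcm5, a subunit of the replicative helicase, stood at 2.45, 1.81 and 1.32 CPM at P14 and 0.453, 0.436 and 0.468 at P56 and fell by 2.04 ± 0.22 (edgeR adjusted p = 6.55e-05). Its P56 libraries were alike while P14 carried the order of the marker score, and with the score in the fit the change was −1.21. E2f1, an activator of S phase genes, stood at 0.792, 0.325 and 0.359 and then 0, 0.0689 and 0.0446 CPM and fell by 3.62 ± 0.61 (edgeR adjusted p = 0.000762). Pole, the catalytic subunit of the leading strand polymerase, stood at 3.40, 2.70 and 2.29 and then 4.71, 4.73 and 4.72 CPM and rose by 0.75 ± 0.14 (edgeR adjusted p = 0.00112). Pola1, the polymerase subunit that extends primers, did not pass, at 64.3, 55.3 and 54.5 and then 60.7, 52.2 and 50.1 CPM with overlap, but was lower with correction for GC content (−0.40, edgeR adjusted p = 0.000921). The list held 16 members in the order of the score at P14 and 1 in the opposite. With the score in the fit 2 were higher and 4 lower, against 16.2% and 15.2% of all genes. The count of lower genes was near that share.

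The Mcm5 promoter is shown with sites of the kind bound by E2F factors in capitals (TTTCCCGC, TTTGGCGC or TTTCGCGC on either strand), where 2 such sites overlap.
Mcm5, chr8:75109259-75109558, forward strand: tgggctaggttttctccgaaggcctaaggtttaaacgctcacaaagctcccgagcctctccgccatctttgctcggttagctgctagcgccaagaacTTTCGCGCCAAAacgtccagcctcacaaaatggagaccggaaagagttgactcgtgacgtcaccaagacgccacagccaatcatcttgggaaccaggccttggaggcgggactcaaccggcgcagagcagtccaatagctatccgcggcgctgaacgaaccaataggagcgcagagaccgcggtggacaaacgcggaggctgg
Of the 29 measured replication genes 20 had exactly 1 promoter in the table. Any of these 3 motifs was in 8 of these 20 (40.0%) and in 3.6% of the 8734.

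Replication-dependent histone genes, whose messages are made in S phase, were lower for 10 of 34, near the 28.5% of all genes, and higher for 4, against 27.5%. Their median was −0.46, and −0.77 without P56 replicate 1. With only the 6 libraries of P14 and P56 in the fit 3 were lower and the median was 0.08. Hist1h1b, a linker histone, stood at 0.767, 0.676 and 0.248 CPM and then 0.0453, 0.0918 and 0 and fell by 3.57 ± 0.67 (edgeR adjusted p = 0.00149). Hist1h2be, a histone H2B, went the other way from 5.24, 5.27 and 5.10 to 11.6, 13.9 and 15.4 CPM and rose by 1.39 ± 0.11 (edgeR adjusted p = 1.18e-05). Hist1h2bc, another H2B gene, also rose, by 1.404 ± 0.17. These genes are near-identical copies, so reads may be shared among them. With the score in the fit none was lower and 5 were higher.

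Brakes and drivers of the cycle moved in both directions. Among the 18 genes of CDK inhibitors, pocket proteins and D and E cyclins, 9 were lower and 4 higher, against 28.5% and 27.5% of all genes, with a median of −0.31, which was −0.47 without P56 replicate 1 and −0.46 without P14 replicate 3. Cdkn1a, the p21 inhibitor, stood at 17.7, 18.7 and 14.8 CPM at P14 and 1.29, 1.88 and 1.09 at P56 and fell by 3.59 ± 0.19 (edgeR adjusted p = 1e-06). P14 replicate 3 was the lowest P14 library of Cdkn1a but its order was not that of the score, and with the score in the fit the change was −3.21 (edgeR adjusted p = 5.05e-05). Cdk6, a partner of D cyclins, stood at 181, 158 and 149 and then 68.1, 60.2 and 63.0 CPM and fell by 1.35 ± 0.08 (edgeR adjusted p = 1.85e-06). Ccne1, a cyclin of S phase entry, rose from 0.204, 0.325 and 0.221 to 0.838, 0.827 and 0.780 CPM by 1.70 ± 0.23 (edgeR adjusted p = 0.000248), on 28 counts at P14 and 108 at P56. Rbl2, a pocket protein of resting cells, stood at 29.0, 24.8 and 28.2 and then 40.9, 39.7 and 37.7 CPM and rose by 0.53 ± 0.08, whereas Rbl1, its relative in cycling cells, fell by 2.13 ± 0.29. In the fit with the score Rbl1 was at −0.67 (edgeR adjusted p = 0.176). In the whole list 5 were higher and 3 lower with the score, and the median was 0.39.

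Imprinted genes are expressed from the copy of 1 parent and are mostly growth regulators. They were lower for 15 of 18 and higher for 1, against 28.5% and 27.5% of all genes, with a median of −2.47. Igf2 (chromosome 7, 142650766 to 142666816), the fetal insulin-like growth factor, stood at 50.5, 31.7 and 21.2 CPM at P14 and 1.11, 0.689 and 0.245 at P56 and fell by 5.66 ± 0.44 (edgeR adjusted p = 9.15e-06). Its P14 and P56 libraries both lay in the order of the marker score, and with the score in the fit the change was −3.54 (edgeR adjusted p = 4.37e-06). H19, the noncoding RNA beside Igf2, stood at 21.2, 10.9 and 8.64 and then 0.249, 0.344 and 0.0668 CPM, and its change was −3.62 with the score against −5.94 without. The maternal transcripts Meg3, Mirg and Rian, which overlap other annotated exons, were likewise highest in P14 replicate 1 and lowest in P14 replicate 3. Mirg was at −1.16 and Rian at −0.71 with the score, neither past the threshold.

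Of the 18 imprinted genes 11 carried the order of the score at P14 and 2 the opposite, and 10 were lower and 1 higher with the score in the fit. Plagl1 and Peg3 did not follow that order. Plagl1, a zinc finger factor that activates other imprinted genes, stood at 44.9, 39.2 and 39.6 CPM at P14 and 3.58, 4.43 and 3.45 at P56 and fell by 3.43 ± 0.10 (edgeR adjusted p = 5.14e-08), and its change was −3.29 with the score. Peg3, another paternally expressed zinc finger gene, stood at 65.3, 62.4 and 74.4 and then 8.68, 11.2 and 11.1 CPM and fell by 2.70 ± 0.11 (edgeR adjusted p = 3.36e-07), or −3.17 with the score. P14 replicate 3, which held least marker RNA, was the highest of the 6 libraries for Peg3. Grb10, an adaptor that restrains insulin and IGF receptors, fell by 0.64 ± 0.06 and Igf2r, the receptor that clears Igf2, by 0.69 ± 0.05. Slc38a4, an amino acid transporter, fell by 1.82 ± 0.10. Zim1, a maternally expressed zinc finger gene beside Peg3, rose from 2.86, 2.43 and 2.26 to 5.23, 6.45 and 6.46 CPM by 1.26 ± 0.14 (edgeR adjusted p = 5.62e-05).

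**Figure D2:**
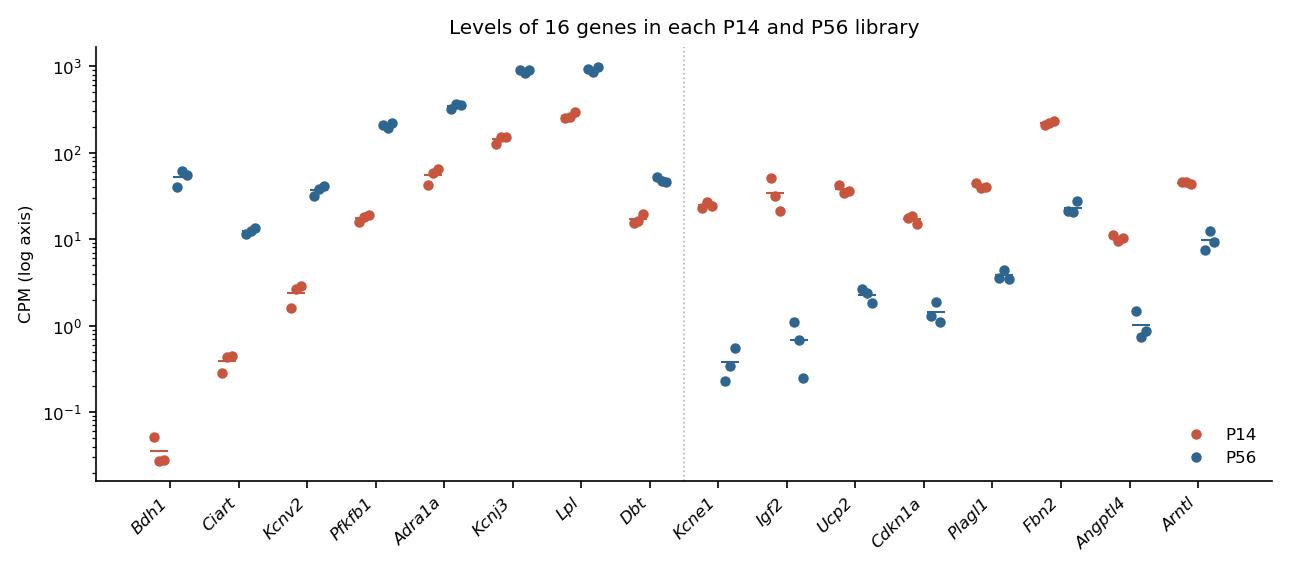
CPM (y axis, log scale) of 16 genes in the 3 P14 and 3 P56 libraries, with a line at the mean of 3 and 8 genes that rose left of the dotted line and 8 that fell right of it. The ages do not overlap for any of the 16, and Igf2 spreads more among libraries of 1 age than Plagl1 or Fbn2 do.

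Growth factor genes were lower for 12 of 27 and higher for 6, against 28.5% and 27.5% of all genes, with a median of −0.06, which was −0.26 without P14 replicate 1, −0.19 without P56 replicate 1 and −0.27 with correction for GC content. Igf2bp3 and Igf2bp2, fetal proteins that bind Igf2 and other messages, fell by 3.76 ± 0.25 and 1.69 ± 0.08. Igf2bp2 stood at 83.6, 97.8 and 101 CPM at P14 and 29.5, 30.9 and 26.8 at P56 (edgeR adjusted p = 8.51e-07). Erbb2, the co-receptor for neuregulin in cardiomyocytes, stood at 18.1, 21.3 and 23.9 and then 9.26, 9.39 and 8.35 CPM and fell by 1.23 ± 0.10 (edgeR adjusted p = 1.37e-05), and its change was −1.49 with the score. Nrg1, the neuregulin ligand that endothelium makes, stood at 39.8, 23.6 and 13.7 and then 5.19, 3.86 and 2.45 CPM and fell by 2.75 ± 0.43, but was at −0.19 with the score (edgeR adjusted p = 0.637). Cyr61, a secreted matricellular protein, rose from 13.5, 12.7 and 16.8 to 53.2, 43.6 and 48.4 CPM by 1.75 ± 0.15 (edgeR adjusted p = 1.78e-05).

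Genes of the contractile apparatus divided. Of 21 adult sarcomere and Z-disc genes 7 were higher and 5 lower, against 27.5% and 28.5% of all genes, with a median of −0.14. Myh6, the adult ventricular myosin heavy chain of the mouse, stood at 4355, 6460 and 8375 CPM at P14 and 3355, 4547 and 4700 at P56 and fell by 0.61 ± 0.21 (edgeR adjusted p = 0.0325). P14 replicate 3, which held least marker RNA, was the highest library of Myh6 and P14 replicate 1 overlapped the P56 range. Mybpc3, cardiac myosin-binding protein C, stood at 794, 1193 and 1455 and then 617, 794 and 799 CPM and fell by 0.64 ± 0.19 (edgeR adjusted p = 0.0153), also with overlap. The call of Myh6 was lost when only the 6 libraries were fitted (edgeR adjusted p = 0.0723) and without P14 replicate 2 or 3 or P56 replicate 1 or 2, with log2 changes of −0.60, −0.36, −0.47 and −0.67, and that of Mybpc3 without P56 replicate 1 (−0.53). With correction for GC content they were at −0.32 and −0.34 (edgeR adjusted p = 0.137 and 0.0643). Tcap, a Z-disc cap of titin, rose from 11.3, 17.2 and 16.2 to 39.7, 34.4 and 39.1 CPM by 1.34 ± 0.16 (edgeR adjusted p = 8.93e-05). Myom3, an M-band protein, and Cryab, a small heat shock protein that protects desmin, rose by 1.47 ± 0.17 and 1.50 ± 0.19. Rpl3l, the muscle form of a ribosomal protein, rose from 21.5, 36.0 and 45.2 to 60.8, 69.4 and 70.8 CPM by 0.97 ± 0.22 (edgeR adjusted p = 0.00433), but was at −0.12 with the score.

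The 21 genes included none in the order of the score at P14 and 16 in the opposite order, against 27.2% of all genes. Fitted with the score, 3 were higher and 12 lower, and the median was −0.90. Ttn, which did not pass with age alone at −0.04, was at −1.09 in that fit (edgeR adjusted p = 0.000957). Tnni3, the adult cardiac troponin I, stood at 152, 249 and 283 and then 145, 197 and 202 CPM and did not pass with age alone (log2 change −0.33 ± 0.20, edgeR adjusted p = 0.182). Without P14 replicate 1, the juvenile library with most marker RNA, Tnni3 was lower past the threshold at −0.56.

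Fetal sarcomere and stress genes were lower for 6 of 16 and higher for 3, against 28.5% and 27.5% of all genes, with a median of −0.37, which was −0.11 with correction for GC content. Tnni1, the fetal troponin I, was already low at P14 with 1.64, 1.32 and 0.910 CPM, against a P1 mean of 235, and stood at 0.204, 0.276 and 0.245 at P56, a fall of 2.41 ± 0.24 (edgeR adjusted p = 3.7e-05). Cacna1h, which encodes a T-type calcium channel known from the immature heart, stood at 3.40, 3.30 and 2.68 and then 0.408, 0.253 and 0.401 CPM and fell by 3.13 ± 0.17 (edgeR adjusted p = 1.22e-06). Myh7, the fetal and slow myosin heavy chain, did not pass, at 95.7, 132 and 178 and then 89.5, 109 and 126 CPM with overlap. It was lower past the threshold without P14 replicate 1 (−0.52) and with scaling by library totals (−0.42). Acta1, skeletal alpha-actin, rose from 3.99, 8.25 and 4.75 to 17.4, 18.4 and 20.4 CPM by 1.73 ± 0.23 (edgeR adjusted p = 0.000215). Xirp2, an actin-binding protein of intercalated discs, and Ankrd1, a titin-bound stretch-responsive factor, rose by 0.65 ± 0.08 and 0.46 ± 0.09. The natriuretic peptide genes Nppa and Nppb had overlapping ranges and did not pass, Nppa at 31.8, 26.6 and 13.7 and then 31.6, 14.9 and 15.3 CPM.

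Calcium handling genes were higher for 8 of 20 and lower for 4, against 27.5% and 28.5% of all genes, with a median of 0.12. Pln, the brake on the sarcoplasmic calcium pump, stood at 661, 569 and 625 CPM at P14 and 1419, 1328 and 1594 at P56 and rose by 1.23 ± 0.08 (edgeR adjusted p = 4.04e-06). Hrc, a calcium-binding protein in the lumen of that store, stood at 25.9, 32.2 and 30.5 and then 62.9, 64.7 and 71.2 CPM and rose by 1.17 ± 0.09 (edgeR adjusted p = 8.03e-06). The ages did not overlap in either gene. Itpr2, an inositol trisphosphate receptor, and Jph1, a junctophilin that ties the store to the surface, rose by 0.94 ± 0.12 and 0.85 ± 0.08. Ryr2, the release channel, did not pass, at 14520, 19480 and 23500 and then 13540, 17870 and 17120 CPM. It was lower without P14 replicate 1 (−0.41, edgeR adjusted p = 0.0269) and with scaling by library totals (−0.34, edgeR adjusted p = 0.0475). Casq2, the cardiac calsequestrin, fell by 0.38 ± 0.09, and Bin1, a membrane-bending protein of transverse tubules, fell by 2.65 ± 0.45 with P14 values of 10.9, 6.71 and 2.95 CPM in the order of the score. With the score in the fit Pln was at 1.21 and Hrc at 0.89, both past the threshold, while Itpr2 at 0.28 (edgeR adjusted p = 0.147) and Bin1 at 0.09 were not.

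Ion channel genes held some of the largest changes in the table. Of 26, 12 were higher and 5 lower, against 27.5% and 28.5% of all genes, with a median of 0.29 that was 0.10 without P14 replicate 1, 0.48 without P14 replicate 3 and 0.50 with correction for GC content. Kcne1 (chromosome 16, 92345982 to 92359468), the small partner of the slow delayed rectifier, stood at 22.8, 26.8 and 24.0 CPM at P14 and 0.227, 0.344 and 0.557 at P56 and fell by 6.02 ± 0.20 (edgeR adjusted p = 1.07e-07) while its P1 mean was 39.9 CPM. The pore gene it serves, Kcnq1, did not pass, at 776, 919.6 and 946 and then 968, 937 and 1012 CPM, but was higher with correction for GC content (0.45, edgeR adjusted p = 0.00073). Kcnv2, a silent subunit that modifies Kv2 channels, stood at 1.58, 2.65 and 2.84 and then 31.7, 37.9 and 41.0 CPM and rose by 3.97 ± 0.20 (edgeR adjusted p = 9.02e-07). The ages did not overlap in Kcne1 or Kcnv2.

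Sodium, pacemaker and inward rectifier channels changed as well. Scn4b, a beta subunit of sodium channels, stood at 0.537, 2.24 and 1.74 CPM at P14 and 20.1, 21.8 and 18.04 at P56 and rose by 3.73 ± 0.35 (edgeR adjusted p = 2.74e-05). Hcn2, a pacemaker channel of ventricle, fell from 21.7, 30.8 and 35.5 to 12.0, 13.8 and 12.9 CPM by 1.19 ± 0.16. Kcnj3, the Girk1 channel opened by acetylcholine, stood at 126, 153 and 153 and then 894, 830.5 and 908 CPM and rose by 2.61 ± 0.09 (edgeR adjusted p = 1.46e-07). In the fit with the score Kcne1 was at −6.37, Kcnv2 at 3.06, Scn4b at 3.23 and Kcnj3 at 2.44, all past the threshold. Only 2 of the 26 genes carried the order of the score at P14 and 16 the opposite order.

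Receptors and cyclic nucleotide enzymes were higher for 7 of 19 and lower for 6, against 27.5% and 28.5% of all genes, with a median of −0.12. Adra1a, an alpha-1 adrenergic receptor, stood at 42.4, 58.2 and 64.1 CPM at P14 and 322, 369 and 359 at P56 and rose by 2.67 ± 0.13 (edgeR adjusted p = 9.02e-07), while the related Adra1b fell by 0.50 ± 0.11 (edgeR adjusted p = 0.00413). Adrb1, the main beta receptor of cardiomyocytes, did not pass, at 15.0, 17.1 and 17.9 and then 13.7, 13.6 and 17.7 CPM with overlap. Pde4d, a phosphodiesterase that degrades cyclic AMP, stood at 2591, 3197 and 3310 and then 8703, 9149 and 8586 CPM and rose by 1.54 ± 0.10 (edgeR adjusted p = 2.87e-06). Adcy5, an adenylyl cyclase that makes cyclic AMP, fell from 321, 458 and 500.2 to 168, 200.0 and 176 CPM by 1.23 ± 0.15 (edgeR adjusted p = 0.000125). Fitted with the score, these were at 2.03, −0.67, 1.24 and −1.92 for Adra1a, Adra1b, Pde4d and Adcy5, each past the threshold.

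Genes of fuel use changed list by list. Among 30 genes of fatty acid uptake and oxidation 14 were lower and 7 higher, against 28.5% and 27.5% of all genes, with a median of −0.22. Pdk4, the kinase that shuts pyruvate out of the mitochondrial oxidation route, stood at 264, 222 and 288 CPM at P14 and 52.8, 16.1 and 12.3 at P56 and fell by 3.25 ± 0.46 (edgeR adjusted p = 0.000289), with P56 replicate 1 highest among the adult libraries. Angptl4, a secreted inhibitor of lipoprotein lipase, stood at 11.1, 9.38 and 10.4 and then 1.47, 0.735 and 0.869 CPM and fell by 3.33 ± 0.21 (edgeR adjusted p = 2.9e-06). Acot1 and Acot2, neighbouring thioesterases of near-identical sequence that may share reads, fell by 2.91 ± 0.32 and 1.87 ± 0.23. Ucp2, an inner membrane carrier counted in the nuclear receptor list below, stood at 42.4, 34.4 and 36.0 and then 2.65, 2.41 and 1.80 CPM and fell by 4.04 ± 0.15 (edgeR adjusted p = 1.48e-07). PPAR receptors are known to act on many genes of fatty acid use. A link between the receptors and any rise or fall in the list was not tested. Ppara, the receptor gene itself, was 241, 293 and 328 CPM and then 302, 436 and 424 and rose by 0.43 ± 0.15 (edgeR adjusted p = 0.0354) with overlap, but was at −0.45 with the score. The call of Ppara was lost when only the 6 libraries were fitted (edgeR adjusted p = 0.0664) and without P1 replicate 1, P14 replicate 1 or 2 or P56 replicate 2 or 3, with log2 changes from 0.32 to 0.45.

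Lpl (chromosome 8, 68880491 to 68907448), the lipase that frees fatty acids from lipoproteins, went the other way and stood at 249, 258 and 293 CPM at P14 and 939, 862 and 984 at P56, a rise of 1.80 ± 0.08 (edgeR adjusted p = 4.45e-07). All P56 libraries lay above all P14 libraries, and with the score in the fit the rise was 1.59. Acaca, which makes malonyl-CoA, rose from 27.9, 25.6 and 23.6 to 67.4, 63.9 and 67.2 CPM by 1.36 ± 0.07 (edgeR adjusted p = 9.6e-07). Etfa, an electron carrier of beta-oxidation, and Cd36, a fatty acid translocase that endothelium also makes, rose by 0.61 ± 0.06 and 0.56 ± 0.10, Cd36 not past the threshold with correction for GC content (0.17). Acsl1, the main fatty acyl-CoA synthetase, and Hadha, a subunit of the trifunctional protein, did not pass. Acsl1 stood at 413, 492 and 571 and then 477, 414 and 409.6 CPM and was lower without P14 replicate 1 (−0.29, edgeR adjusted p = 0.0156). It was also lower past the threshold with scaling by library totals (−0.28) and with correction for GC content (−0.39). In the list 1 gene carried the order of the score at P14 and 17 the opposite, and 12 were lower and 5 higher with the score in the fit.

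Among lists of more than 5 genes, ketone body and amino acid oxidation had the largest share of rises, 16 of 20 against a background of 27.5%, with 2 falls and a median of 0.98. Bdh1 (GRCm38 chromosome 16, 31422280 to 31458901), which starts the oxidation of hydroxybutyrate, held 4 counts over all P14 libraries (0.0511, 0.0270 and 0.0276 CPM) and 6974 at P56 (40.4, 62.1 and 55.4 CPM), a fitted rise of 10.42 ± 0.29 (edgeR adjusted p = 3.63e-08). Oxct1, which activates acetoacetate in the next step, stood at 313, 363 and 396 and then 976, 916 and 919.6 CPM and rose by 1.39 ± 0.09 (edgeR adjusted p = 2.8e-06).

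Most other rises of that list lay in the breakdown of branched-chain amino acids. Dbt, the core of the branched-chain ketoacid dehydrogenase, stood at 15.3, 16.2 and 19.4 CPM at P14 and 52.4, 47.2 and 45.7 at P56 and rose by 1.51 ± 0.10 (edgeR adjusted p = 2.97e-06). Bckdhb, a subunit of the same complex, stood at 80.0, 73.9 and 83.3 and then 218, 196 and 202 CPM and rose by 1.38 ± 0.06 (edgeR adjusted p = 5.35e-07), and the partner subunit Bckdha rose by 0.91 ± 0.13. No P14 library reached any P56 library for Dbt or Bckdhb. Further along the route Ivd, Mccc1 and Mccc2 of leucine breakdown rose by 1.13 ± 0.10, 1.135 ± 0.09 and 1.143 ± 0.09, and Pcca of propionate carboxylation by 1.21 ± 0.06. Its partner Pccb, at 28.4, 33.1 and 33.8 and then 39.5, 35.7 and 33.6 CPM, did not pass, but was higher with correction for GC content (0.23, edgeR adjusted p = 0.0395). With the score in the fit 13 of the 20 were higher, 1 lower and the median was 0.75, and 1 gene carried the order of the score at P14.

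Glycolysis and glycogen genes were higher for 8 of 29, the share found over all genes (27.5%), and lower for 2, against 28.5%. Their median was 0.17. Correction for GC content gave 14 higher. Pfkfb1 (chromosome X, 150588229 to 150643878), a bifunctional enzyme that sets the level of the glycolytic activator fructose bisphosphate, stood at 15.8, 18.1 and 19.1 CPM at P14 and 209, 192 and 218 at P56 and rose by 3.55 ± 0.08 (edgeR adjusted p = 2.16e-08). Slc2a4, the insulin-responsive glucose transporter GLUT4, stood at 47.0, 52.2 and 66.0 and then 163, 141 and 160.2 CPM and rose by 1.49 ± 0.11 (edgeR adjusted p = 7.68e-06). Slc2a1, the transporter GLUT1 that is known from fetal heart, also rose, from 4.24, 5.03 and 6.01 to 15.6, 13.7 and 13.8 CPM by 1.50 ± 0.13 (edgeR adjusted p = 1.79e-05). Ldhb, the heart form of lactate dehydrogenase, rose by 0.86 ± 0.07. Pfkp and Hk1, platelet-type phosphofructokinase and hexokinase 1, fell by 0.53 ± 0.07 and 0.23 ± 0.08. The ages did not overlap for any of these 6 genes, but the call of Hk1 was lost when only the 6 libraries were fitted (edgeR adjusted p = 0.065) and without any of 5 libraries, P1 replicate 1, P14 replicate 2 or 3 or P56 replicate 1 or 3, at log2 changes from −0.25 to −0.15. In the fit with the score 5 were higher and 8 lower.

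Pyruvate entry and the TCA cycle held 10 rises and 1 fall among 24 genes, against 27.5% and 28.5% of all genes, with a median of 0.16. Mpc1 and Mpc2 form the mitochondrial pyruvate carrier. Mpc1 stood at 93.7, 108 and 122 CPM at P14 and 221, 269 and 269 at P56 and rose by 1.23 ± 0.11 (edgeR adjusted p = 1.74e-05), and Mpc2 rose by 0.53 ± 0.06 (edgeR adjusted p = 0.000114). Suclg2, a subunit of succinyl-CoA ligase, rose by 0.89 ± 0.05, Ogdh, of oxoglutarate dehydrogenase, by 0.63 ± 0.10 (0.08 with the score, edgeR adjusted p = 0.656), and Cs, citrate synthase, fell by 0.23 ± 0.05. Nuclear-encoded respiratory chain genes were higher for 13 of 36 and lower for 2, against 27.5% and 28.5% of all genes. Their median was 0.10, and it was −0.01 when libraries were scaled by totals alone, with 7 higher. Ndufa4 and Ndufa5 rose by 0.63 ± 0.06 and 0.63 ± 0.06, and Cyc1, cytochrome c1, fell by 0.59 ± 0.12, or −0.09 with correction for GC content.

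Transcripts of the mitochondrial genome went down instead. All 7 measured mRNAs were lower, against 28.5% of all genes, with a median of −0.83 that was −1.26 with correction for GC content. Summed, they stood at 1224, 1254 and 756.2 CPM at P14 and 720.2, 504.7 and 596.3 at P56. The protocol behind each library is not known. Mitochondrial RNA kept or lost in preparation therefore cannot be told apart from its level in the cells. Nd5 of complex I (mt-Nd5) stood at 167, 190.4 and 117 CPM at P14 and 76.9, 57.3 and 67.5 at P56 and fell by 1.23 ± 0.17 (edgeR adjusted p = 0.000228). P14 replicate 3, which held least marker RNA, was the lowest P14 library, and the highest was replicate 2. The mitochondrial ribosomal RNA mt-Rnr2 stood at 15130, 10950 and 7646 and then 5079, 2694 and 2566 CPM and fell by 1.71 ± 0.30 (edgeR adjusted p = 0.000973). Ribosomal RNA was depleted, so how much of mt-Rnr2 escaped depletion in each library cannot be told apart from its level. Fitted with the score, none of the 7 mRNAs passed, their median was −0.17, and mt-Rnr2 was at 0.01.

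Ribosomal protein genes were counted by compartment. Of 81 cytosolic ones 35 were lower and 2 higher, against 28.5% and 27.5% of all genes, with a median of −0.34, and 23 were lower without P56 replicate 2. Summed, they stood at 503.5, 490.8 and 479.5 CPM at P14 and 449.5, 413.7 and 417.6 at P56. Whether these are levels of nuclear or of whole-cell RNA is not known. Rplp0, of the ribosomal stalk, stood at 12.9, 10.2 and 8.03 CPM and then 6.75, 4.94 and 5.75 and fell by 0.84 ± 0.17 (edgeR adjusted p = 0.00261). Of 74 mitochondrial ones 23 were higher, a share near the 27.5% of all genes, and 8 lower, against 28.5%. Their median was 0.16, and 14 were higher when libraries were scaled by totals alone. The largest rise was that of Mrpl3, at 46.3, 63.1 and 48.0 and then 93.6, 90.2 and 100.3 CPM (log2 change 0.85 ± 0.11). A difference between the compartments was not tested. With the score in the fit 4 cytosolic genes were higher and 4 lower, and 10 mitochondrial genes were higher and 5 lower. Processed copies share sequence with many cytosolic ribosomal genes, which makes their counts uncertain.

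**Figure D3:**
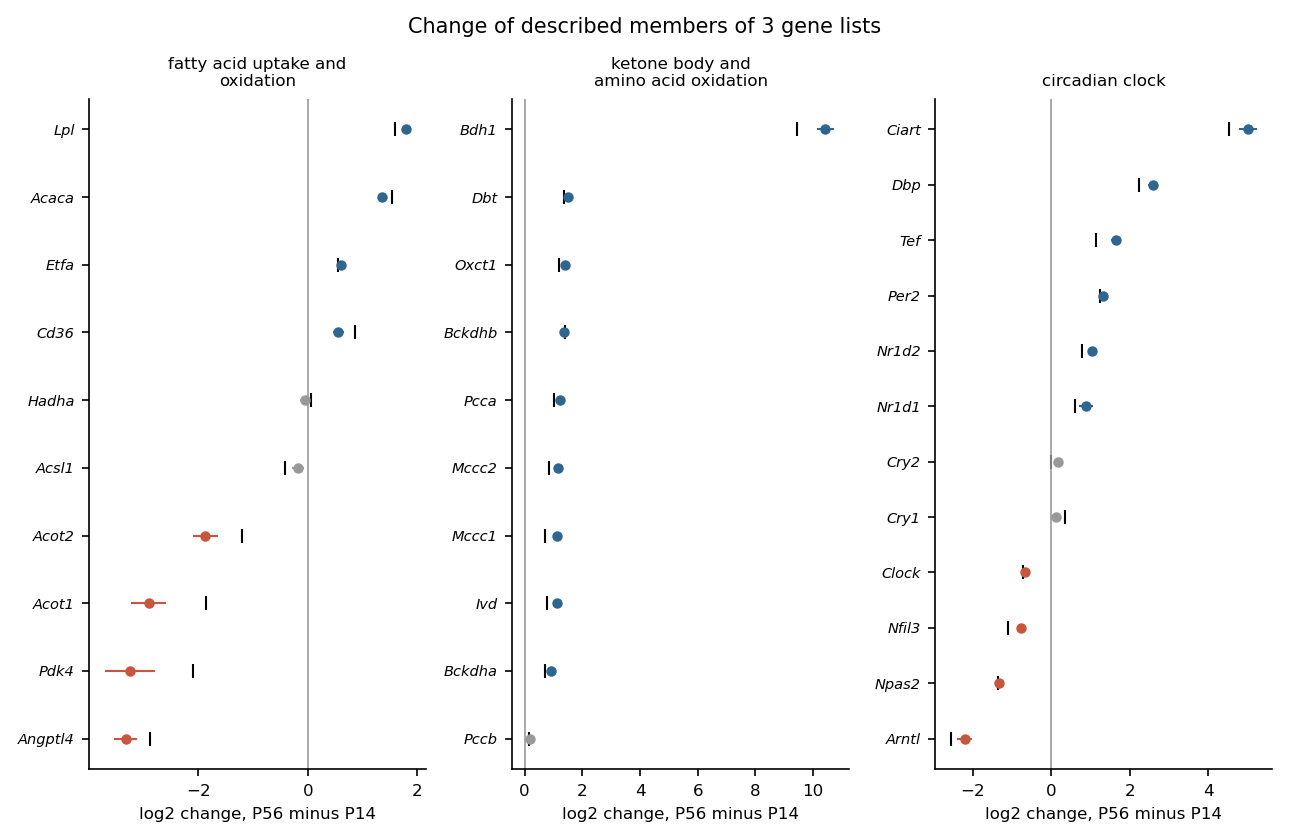
Log2 change ± SE (points and bars, x axis, P56 minus P14) of the members of the fatty acid, ketone body and amino acid, and circadian clock lists that the text describes, blue where higher and red where lower at an edgeR adjusted p under 0.05, grey where not past it. The vertical tick is the change with the marker score in the fit, which lies near the point for Ciart and Lpl and further from it for Bdh1 and Acot1.

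Clock genes moved in opposite groups. Of 17, 9 were higher and 4 lower, against 27.5% and 28.5% of all genes, with a median of 0.30. The positive arm was lower. Arntl, which encodes BMAL1, stood at 46.1, 45.5 and 42.9 CPM at P14 and 7.54, 12.4 and 9.20 at P56 and fell by 2.21 ± 0.19 (edgeR adjusted p = 1.76e-05). Its partners Npas2 and Clock fell by 1.33 ± 0.08 and 0.67 ± 0.06, and Nfil3, a repressor of D-box genes, by 0.76 ± 0.09. Most genes that rose are known as outputs or repressors of that arm. Ciart, a repressor of BMAL1, stood at 0.281, 0.433 and 0.441 and then 11.3, 12.5 and 13.6 CPM and rose by 5.01 ± 0.23 (edgeR adjusted p = 5.35e-07). Dbp, a D-box activator, stood at 7.16, 7.57 and 9.24 and then 47.5, 42.2 and 55.5 CPM and rose by 2.60 ± 0.13 (edgeR adjusted p = 8.51e-07). Tef, a related activator, rose by 1.65 ± 0.11, Per2, a repressor, by 1.32 ± 0.09, Nr1d2, which encodes REV-ERB beta, by 1.05 ± 0.11, and its relative Nr1d1 by 0.89 ± 0.17, or 0.62 with the score (edgeR adjusted p = 0.165). Cry1 and Cry2, repressors of the same arm, did not pass. Cry1 stood at 24.2, 19.4 and 17.8 and then 20.9, 22.02 and 24.0 CPM and was higher without P14 replicate 1 (0.26, edgeR adjusted p = 0.0271). Cry2 stood at 32.4, 34.4 and 37.9 and then 39.2, 40.5 and 38.3 CPM (log2 change 0.17 ± 0.07, edgeR adjusted p = 0.0531) and was higher past the threshold with DESeq2, with its size factors in edgeR, with correction for GC content (0.41) and without P14 replicate 3.

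No library of either age overlapped the other for Arntl, Ciart, Dbp, Tef or Per2. The levels of these genes are known to swing over the day, and the hour of collection, which the labels do not give, cannot be told apart from age here. In the fit with the score 7 clock genes were higher and 5 lower, with a median of 0.34. The promoter of Ciart is shown because it holds 3 copies of CACGTG, the E-box that CLOCK and BMAL1 bind, here in capitals.
Ciart, chr3:95882179-95882478, reverse strand: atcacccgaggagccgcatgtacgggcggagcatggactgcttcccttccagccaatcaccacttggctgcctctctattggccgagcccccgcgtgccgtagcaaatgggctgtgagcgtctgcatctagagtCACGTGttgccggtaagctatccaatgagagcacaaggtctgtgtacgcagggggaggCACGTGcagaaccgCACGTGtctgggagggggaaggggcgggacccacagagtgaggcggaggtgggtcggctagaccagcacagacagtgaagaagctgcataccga
Of the 17 measured clock genes 11 had exactly 1 promoter in the table. CACGTG was in 3 of these 11 (27.3%) and in 10.0% of the 8734. The D-box letters TTATGTAA or TTACGTAA on either strand were in 0 of 11 and 0.721%.

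Nuclear receptors and their co-regulators were higher for 9 of 24 and lower for 9, against 27.5% and 28.5% of all genes, with a median of −0.14. Pparg, the PPAR of fat cells, stood at 25.6, 15.9 and 14.2 CPM at P14 and 91.7, 90.4 and 95.4 at P56 and rose by 2.32 ± 0.19 (edgeR adjusted p = 1.19e-05). Nr3c2, the mineralocorticoid receptor, stood at 551, 563 and 572 and then 1344, 1295 and 1480 CPM and rose by 1.29 ± 0.07 (edgeR adjusted p = 9.62e-07). The thyroid hormone receptors diverged. Thrb rose by 0.92 ± 0.08 from 861, 954 and 1060 to 1702, 1918 and 1829 CPM, and Thra fell by 1.24 ± 0.09 from 80.9, 95.3 and 103 to 40.1, 39.8 and 37.9 (edgeR adjusted p = 2.06e-05 and 6.5e-06). Esrrb, an estrogen-related receptor, rose by 1.24 ± 0.18 but was at 0.27 with the score. Ppargc1a, the coactivator of mitochondrial genes, did not pass, at 842, 812 and 939.5 and then 819, 778 and 906 CPM with overlap, but was lower with correction for GC content (−0.35, edgeR adjusted p = 0.00552). In this list 2 genes carried the order of the score at P14 and 15 the opposite.

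Cardiac transcription factor genes were lower for 5 of 20 and higher for 6, near the 28.5% and 27.5% of all genes, with a median of 0.05 that was −0.06 when libraries were scaled by totals alone. Mef2c, a factor of early and mature muscle genes, stood at 277, 212 and 199.6 CPM at P14 and 499.7, 416 and 445 at P56 and rose by 0.98 ± 0.12 (edgeR adjusted p = 0.000123). Meis2, a homeobox factor, rose by 0.68 ± 0.05. Srf, the serum response factor, stood at 19.3, 23.01 and 24.1 and then 10.6, 14.0 and 14.6 CPM and fell by 0.76 ± 0.13 (edgeR adjusted p = 0.000953), and Nkx2-5, a cardiac homeobox factor, fell by 0.56 ± 0.16. Neither passed with correction for GC content, Srf at −0.18 and Nkx2-5 at 0.07. Gata4, another core cardiac factor, did not pass, at 385, 433 and 452 and then 418, 457 and 463 CPM, but was higher with that correction (0.40, edgeR adjusted p = 0.000104). Genes of DNA methylation and Polycomb were lower for 11 of 30 and higher for 2, against 28.5% and 27.5% of all genes, with a median of −0.29, and 17 were lower with correction for GC content. Uhrf1, which guides maintenance methylation, stood at 2.56, 2.30 and 1.96 and then 0.702, 1.33 and 0.958 CPM and fell by 1.19 ± 0.21 (edgeR adjusted p = 0.00102).

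Extracellular matrix genes were lower for 27 of 30 and higher for 1, against 28.5% and 27.5% of all genes, with a median of −2.46. At P14 27 of the 30 carried the order of the score, against 28.1% of all genes. Fitted with the score, 6 were lower and 4 higher, and the median was −0.18. Eln, elastin, stood at 92.7, 73.3 and 37.7 CPM at P14 and 3.60, 2.43 and 1.07 at P56 and fell by 4.84 ± 0.47 (edgeR adjusted p = 3.33e-05), or −2.37 with the score. Tnc, tenascin C of growing and injured tissue, stood at 5.34, 3.22 and 2.48 and then 0.272, 0.344 and 0.0668 CPM and fell by 4.01 ± 0.56 (edgeR adjusted p = 0.000256), or −1.59 with the score, not past the threshold there. Fbn2, the fetal fibrillin, was apart from these. Its P14 values of 206, 221 and 232 CPM were highest in the library with least marker RNA, it stood at 21.1, 20.6 and 27.6 at P56 and fell by 3.25 ± 0.11 (edgeR adjusted p = 1.07e-07), and with the score in the fit the change was −3.64. The 1 rise was Lama2, the laminin chain of the muscle basement membrane, by 0.26 ± 0.07 (edgeR adjusted p = 0.00875), and it did not pass with correction for GC content (0.13) or scaling by totals (0.15).

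Axon guidance and adhesion genes were lower for 13 of 26 and higher for 7, against 28.5% and 27.5% of all genes, with a median of −0.81 that was −0.52 without P14 replicate 1. Nrp2, a semaphorin receptor of vessels, stood at 73.3, 49.8 and 32.0 CPM at P14 and 11.6, 6.45 and 5.04 at P56 and fell by 2.75 ± 0.34 (edgeR adjusted p = 0.000137). Epha4, an ephrin receptor, stood at 73.8, 83.1 and 84.9 and then 244, 232 and 262 CPM and rose by 1.61 ± 0.08 (edgeR adjusted p = 9.62e-07). Cdh13, a cadherin anchored in the membrane by a lipid, and Sema3a, a secreted semaphorin, rose by 0.62 ± 0.14 and 0.89 ± 0.11, and were at −0.11 and 1.10 with the score. At P14 17 genes of the list carried the order of the score, and with the score in the fit 6 were higher and 2 lower.

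Immune and stress response genes depended on single libraries. Of 20 interferon response genes 8 were lower and 1 higher, against 28.5% and 27.5% of all genes, with a median of −0.53, but 5 were lower without P56 replicate 1 and 4 without P56 replicate 3. Of 18 genes of MHC presentation 5 were lower, a share near the 28.5% of all genes, and none higher, against 27.5%. Without P56 replicate 3, 2 of them were lower. In the interferon list 4 genes carried the order of the score at P14, and with the score 4 were lower. Gbp2, a guanylate-binding protein, stood at 4.62, 1.65 and 1.63 CPM and then 0.793, 0.850 and 0.602 and fell by 1.82 ± 0.40 (edgeR adjusted p = 0.00371). Iigp1, an interferon-induced GTPase, stood at 97.0, 99.9 and 209.8 CPM at P14 and 28.4, 371 and 252 at P56, so that P56 replicate 1 lay below all P14 libraries and the other adult libraries above them. Nlrc5, an activator of MHC class I genes, stood at 31.5, 29.7 and 49.4 and then 2.51, 23.9 and 23.1 CPM with the same adult library lowest, and neither gene passed. Without P56 replicate 1 Iigp1 was higher (1.20, edgeR adjusted p = 0.0106) and Nlrc5 lower (−0.65, edgeR adjusted p = 0.0291). Immediate early and heat shock genes were lower for 6 of 19, near the 28.5% of all genes, and higher for 3, against 27.5%. Their median of −0.07 turned to 0.43 without P14 replicate 1 and to 0.30 without P56 replicate 3. Myc, a growth-promoting factor, stood at 2.43, 1.76 and 2.04 and then 0.679, 0.321 and 0.245 CPM and fell by 2.32 ± 0.31 (edgeR adjusted p = 0.000212), and Hsph1, a large heat shock protein, rose by 1.44 ± 0.41 with values of 6.82, 6.33 and 5.43 and then 8.47, 25.5 and 16.3 CPM. The call of Hsph1 was lost without P56 replicate 2 (1.00, edgeR adjusted p = 0.0601).

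Long noncoding transcripts were more often higher than lower. Of 614 lincRNA genes 36.0% were higher and 16.8% lower, of 588 antisense genes 31.3% and 12.9%, and of 13410 protein-coding genes 27.3% and 31.0%. Whether reads were counted by strand is not known, so antisense genes may hold reads of the genes they overlap. These class shares are of the main fit only. Of all genes 4356 were higher there, 3151 with scaling by library totals and 3571 with correction for GC content. Of 11 long noncoding nuclear RNAs 5 were higher and none lower, against 27.5% and 28.5% of all genes. Their median was 0.11, and −0.17 with correction for GC content, where 3 were higher. Neat1, the scaffold of paraspeckles, stood at 1211, 1689 and 1894 CPM at P14 and 2264, 3332 and 3246 at P56 and rose by 0.88 ± 0.18 (edgeR adjusted p = 0.00272), but was at −0.17 with the score. Malat1, of nuclear speckles, did not pass, at 24350, 27760 and 32690 and then 29960, 32180 and 29340 CPM. The 4 measured genes of the Y chromosome, Eif2s3y, Kdm5d, Uty and Ddx3y, rose by 0.34 ± 0.07, 0.39 ± 0.06, 0.46 ± 0.07 and 0.59 ± 0.09. With correction for GC content Uty and Eif2s3y did not pass, at 0.01 and −0.09. Each of the 4 was detected in every library, and the share of male hearts per pool is not given. Tsix, the other measured sex-linked gene and not on the Y chromosome, also rose, by a log2 of at least 1.

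The naming rule also took the largest changes in the whole table. Cth, which makes cysteine from cystathionine, stood at 1.51, 1.70 and 3.23 and then 28.4, 28.2 and 24.2 CPM and rose by 3.65 ± 0.28 (edgeR adjusted p = 7.5e-06). The adhesion genes Cdh4 and Cntn5 rose by 4.59 ± 0.18 and 4.45 ± 0.13, and Ces1d, a carboxylesterase that hydrolyses stored lipid, by 4.06 ± 0.09. Prune2, a gene of broad expression in nerve, stood at 39.8, 70.6 and 80.1 and then 1217, 1413 and 1545 CPM and rose by 4.45 ± 0.24 (edgeR adjusted p = 1.17e-06). Pde11a and Acsl6, a phosphodiesterase and a fatty acyl-CoA synthetase, rose by 4.06 ± 0.28 and 3.87 ± 0.27. Each of these 7 genes was past the threshold with the score in the fit. Among the largest falls, Kcnn3, a calcium-activated potassium channel, stood at 20.3, 11.6 and 5.35 and then 1.09, 0.344 and 0.379 CPM and fell by 4.36 ± 0.55, or −1.35 with the score. Megf6 and Afap1l2 fell by 4.28 ± 0.38 and 3.90 ± 0.42, or −2.26 and −1.68 with the score.

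The genes with the largest gain in mean CPM were Pde4d, Rn7sk, Magi2, Dmd, Fgf13, Zbtb20, Pcdh7 and Kcnd2. Magi2, a membrane scaffold, stood at 636, 798 and 930.1 CPM at P14 and 3786, 4104 and 4228 at P56 and rose by 2.36 ± 0.12 (edgeR adjusted p = 1e-06). Kcnd2, a pore of the transient outward current, stood at 1746, 2006 and 2178 and then 4240, 3789 and 3833 CPM and rose by 1.00 ± 0.09 (edgeR adjusted p = 2e-05). Dmd, dystrophin, stood at 9050, 8705 and 8994 and then 12140, 11810 and 11940 CPM and rose by 0.42 ± 0.07, or 0.12 with correction for GC content (edgeR adjusted p = 0.197). The largest losses beside Myh6 and the mitochondrial ribosomal RNAs included Pdzd2, a PDZ protein, at 2753, 2991 and 3489 and then 729, 786 and 702 CPM, a fall of 2.06 ± 0.11 (edgeR adjusted p = 9.62e-07). Genes with predicted-gene symbols were also among the largest losses and are not described here. Auts2, a chromatin-associated protein, stood at 1841, 2277 and 2340 and then 712, 846 and 793 CPM and fell by 1.46 ± 0.10 (edgeR adjusted p = 5.52e-06). With the score in the fit Pdzd2 was at −2.42 and Auts2 at −1.92.

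**Figure D4:**
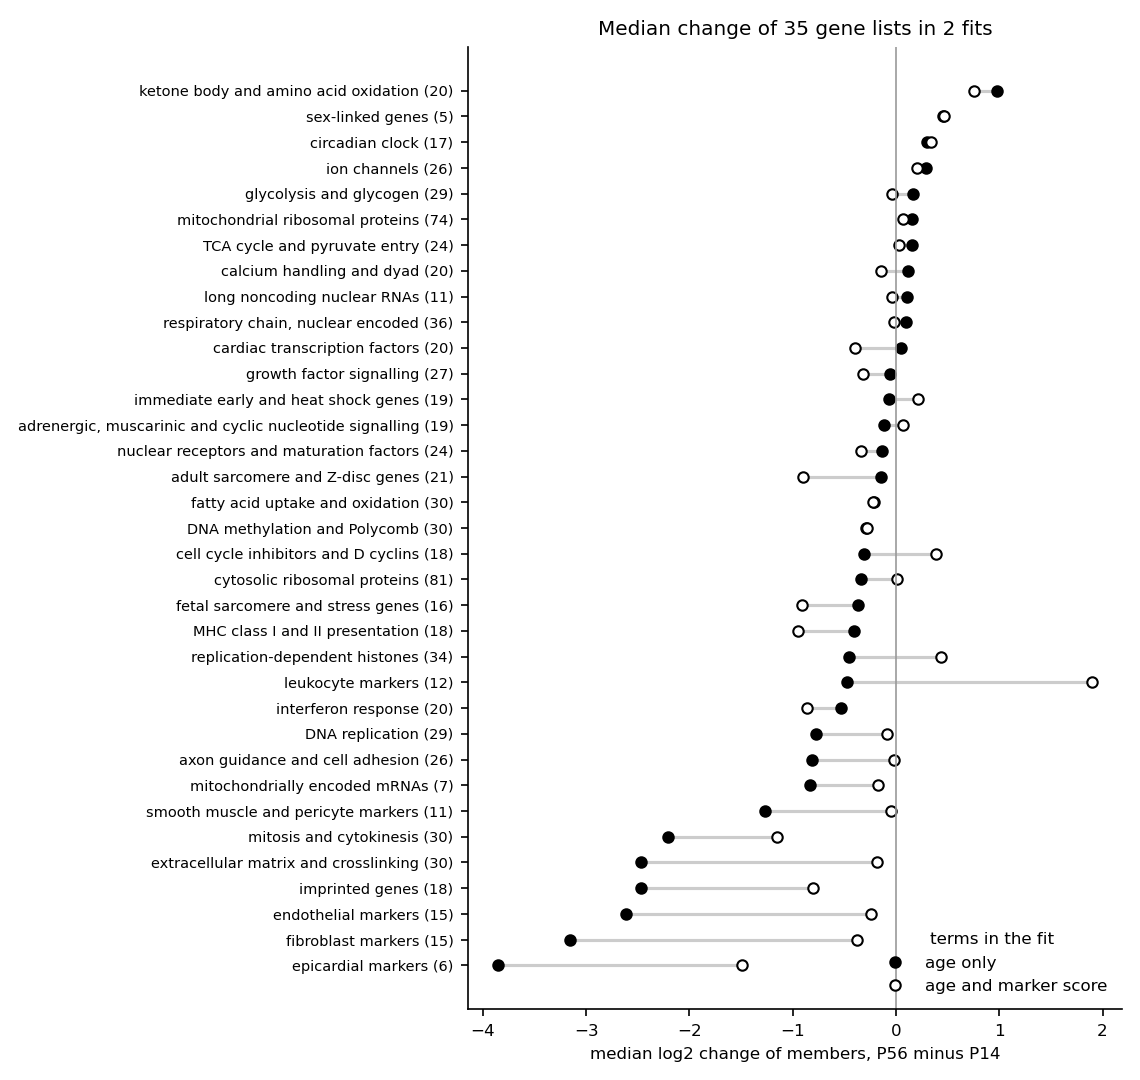
Median log2 change from P14 to P56 (x axis) of the members of 35 gene lists, number measured in brackets, with age alone in the fit (filled) and with the marker score as a second term (open). Endothelial, fibroblast and matrix medians lie between −3.16 and −2.46 in the first fit, and the move of the endothelial and fibroblast medians towards 0 in the second follows from their being the score. Matrix genes are at −0.18 there, mitosis moves from −2.21 to −1.15, and the ketone body and amino acid list from 0.98 to 0.75.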

How the data were processed

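RNA-seq counts per gene for 9 libraries of mouse cardiomyocytes, 3 each at P1, P14 and P56, were taken as deposited by the authors in a table of 15824 genes. Per the submitters' processing notes, the authors used bcl2fastq 2.17.1.14, STAR 2.4.0g1, featureCounts 1.4.2 and the GRCm38 build. The strand and feature settings are not given in the sources used here. Groups were taken from the labels. Counts were fitted with edgeR 4.0.16 (R 4.3.3), filterByExpr (7 genes removed, 15817 tested), TMM scaling, 1 term for age over all 9 libraries and the quasi-likelihood test of P56 against P14, with Benjamini-Hochberg adjustment over all genes and a threshold of 0.05. The SE is the log2 change divided by the square root of F. The biological coefficient of variation was 13.9%. The script was tested on simulated data. Alternatives were the marker score as a covariate, a replicate block, the 6 libraries alone, DESeq2 1.42.0, other scalings and filters, GC offsets, a test against a log2 change of 1, and leaving out each library. Counts limit precision most below 1 CPM, and intervals cover these libraries only. Promoters are from RefSeq (GRCm38.p6), and motifs were searched on both strands. Genes with more than 1 distinct promoter were left out of the motif shares.

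Gene lists and members were chosen with earlier results of these data known. Genes were named by rule: the 12 largest rises and falls whose mean reached 10 CPM at one age and whose ages did not overlap, the 8 largest gains and losses in CPM, and up to 4 members per direction and 4 not past the threshold per list. Some genes that the rule takes are not reported here. Outside it, and chosen after their values were seen, are Adra1b, Adrb1, Bckdha, Eif2s3y, Erbb2, Fbn2, Grb10, Igf2bp2, Igf2r, Ivd, Mccc1, Mccc2, Mirg, Mpc2, Nr1d1, Nr1d2, Pcca, Peg3, Plagl1, Ppara, Rian, Slc38a4 and Wt1.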

Additional observations from a re-analysis of the deposited data

How the results depend on the processing

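DESeq2, DESeq2 size factors in edgeR and no filter on low counts kept all list counts within 1.5 times, all list medians within the replicate spread and all named genes on their side of the threshold, except that Cry2 passed as higher with DESeq2 (0.18) and with its size factors in edgeR (0.18). The other alternatives moved some results as follows, and the cause of each change was not tested. With the marker score as a second term, 2559 genes were higher and 2410 lower, 1137 of the latter by a log2 of at least 1, and the lists stood at endothelial markers 4 lower and median −0.24, fibroblast markers 0 lower and median −0.38, smooth muscle and pericyte markers 2 lower and median −0.044, leukocyte markers 0 lower and median 1.90, epicardial markers 3 lower and median −1.49, Schwann cell and neuron markers median 0.13. Further values there were adipocyte and erythroid markers 2 higher and median 0.91, mitosis and cytokinesis 5 lower and median −1.15, DNA replication 4 lower and median −0.087, imprinted genes median −0.80, fetal sarcomere median −0.91, adult sarcomere 3 higher and median −0.90, calcium handling 4 higher and median −0.15. Next came adrenergic and cyclic nucleotide signalling median 0.067, ketone body and amino acid oxidation median 0.75, glycolysis and glycogen 5 higher and median −0.038, TCA cycle and pyruvate entry 6 higher and median 0.028, respiratory chain 5 higher and median −0.014, mitochondrially encoded mRNAs 0 lower and median −0.17, nuclear receptors 5 higher and median −0.34. Others were cardiac transcription factors median −0.40, DNA methylation and Polycomb 6 lower, cell cycle inhibitors and D cyclins 3 lower and median 0.39, extracellular matrix 6 lower and median −0.18, interferon response 4 lower, MHC 3 lower and median −0.95, immediate early and heat shock genes 1 lower and median 0.21. Then stood growth factor signalling median −0.32, axon guidance and cell adhesion 2 lower and median −0.016, sex-linked genes 2 higher, long noncoding nuclear RNAs 1 higher, replication-dependent histones 0 lower and median 0.44, cytosolic ribosomal proteins 4 lower and median 0.013, mitochondrial ribosomal proteins 10 higher and median 0.070. With the marker score as a second term, named genes of the opposite sign were Bin1 at 0.086, Cdh13 at −0.12, Cenpa at −0.22, Dcn at 2.12, Gbp2 at 0.20, Gsn at 2.47, Laptm5 at 0.23, Mrc1 at 1.95, Neat1 at −0.17, Nppa at 1.86, Ppara at −0.45, Rpl3l at −0.12, Rplp0 at 0.067, mt-Rnr2 at 0.009. With the change tested against a log2 of 1, 472 genes were higher and 1271 lower, and the lists stood at fibroblast markers 8 lower, smooth muscle and pericyte markers 4 lower, leukocyte markers 0 lower, DNA replication 5 lower, adult sarcomere 2 higher, calcium handling 1 higher. The rest included ion channels 7 higher, adrenergic and cyclic nucleotide signalling 3 higher, fatty acid uptake and oxidation 4 lower, ketone body and amino acid oxidation 5 higher, glycolysis and glycogen 3 higher, TCA cycle and pyruvate entry 0 higher, respiratory chain 0 higher. Also given are mitochondrially encoded mRNAs 0 lower, nuclear receptors 2 higher, circadian clock 4 higher, cardiac transcription factors 0 higher, DNA methylation and Polycomb 0 lower, cell cycle inhibitors and D cyclins 4 lower, interferon response 0 lower. Further values there were MHC 1 lower, immediate early and heat shock genes 3 lower, growth factor signalling 5 lower, sex-linked genes 0 higher, long noncoding nuclear RNAs 1 higher, replication-dependent histones 5 lower, cytosolic ribosomal proteins 1 lower. Next came mitochondrial ribosomal proteins 0 higher. With correction for GC content, values were Schwann cell and neuron markers median −0.097, fetal sarcomere median −0.11, ion channels median 0.50, adrenergic and cyclic nucleotide signalling median −0.22, ketone body and amino acid oxidation median 0.83, glycolysis and glycogen 14 higher, TCA cycle and pyruvate entry median 0.065. Others were mitochondrially encoded mRNAs median −1.26, nuclear receptors median −0.059, circadian clock median 0.41, DNA methylation and Polycomb 17 lower and median −0.37, growth factor signalling median −0.27, sex-linked genes 3 higher and median 0.15, long noncoding nuclear RNAs 3 higher and median −0.17. With correction for GC content, named genes of the opposite sign were Eif2s3y at −0.090, Hk1 at 0.042, Nkx2-5 at 0.069. With scaling by library totals, values were Schwann cell and neuron markers median 0.11, adrenergic and cyclic nucleotide signalling median −0.23, ketone body and amino acid oxidation median 0.88, TCA cycle and pyruvate entry median 0.046, respiratory chain 7 higher and median −0.009, nuclear receptors median −0.24, circadian clock median 0.18. Then stood cardiac transcription factors median −0.056, DNA methylation and Polycomb median −0.40, growth factor signalling median −0.16, sex-linked genes median 0.34, long noncoding nuclear RNAs 3 higher, cytosolic ribosomal proteins median −0.45, mitochondrial ribosomal proteins 14 higher and median 0.055. With that scaling Acsl1, Myh7 and Ryr2 passed as lower, and the calls of Pcm1 and Lama2 were lost. With the filter of at least 1 CPM in 3 libraries, values were leukocyte markers 0 lower, epicardial markers 3 lower, imprinted genes median −2.94, DNA methylation and Polycomb median −0.25, MHC 3 lower, replication-dependent histones 6 lower and median −0.087. With the 6 libraries alone, values were replication-dependent histones 3 lower and median 0.078, and the calls of Myh6, Ppara and Hk1 were lost. Leaving out each library in turn gave ranges of smooth muscle and pericyte markers median −2.04 to −0.85, leukocyte markers lower 0 to 5, ion channels median 0.096 to 0.48, ketone body and amino acid oxidation median 0.89 to 1.02, circadian clock median 0.22 to 0.40, DNA methylation and Polycomb median −0.32 to −0.22, cell cycle inhibitors and D cyclins median −0.47 to −0.21. For other lists the ranges were interferon response lower 4 to 9, MHC lower 2 to 6, immediate early and heat shock genes median −0.21 to 0.43, growth factor signalling median −0.26 to −0.053, axon guidance and cell adhesion median −1.05 to −0.52, replication-dependent histones median −0.77 to −0.23, cytosolic ribosomal proteins lower 23 to 40. With the score, the calls of Aurkb, Bckdha, Cdc20, Cenpf, Col1a1, Cs, E2f1, Eif2s3y, Esrrb, Hist1h1b, Hsph1, Itpr2, Kdm5d, Lama2, Mirg, Nr1d1, Nrg1, Ogdh, Rbl1, Rian, Tnc, Top2a, Ttk, Uhrf1 and mt-Nd5 were lost with the sign kept, and Myh7, Nlrc5, Nppb, Ryr2, Tnni3, Tnnt2 and Ttn passed. Same-numbered P14 and P56 libraries correlated at 0.47, 0.011 and 0.341 in their deviations from the age means, and P14 replicate 2 correlated best with P56 replicate 3 (0.051), so the numbers were not taken to pair the libraries. With the replicate block 4299 genes were higher and 4548 lower, leukocyte markers had 3 lower, and Dcn and Mrc1 passed. Genes with under 1 CPM, among them most cell cycle members at P56, rest on few counts per library.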
